A study of Mus musculus and synthetic RNA with 74 samples.

Results

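The 10 genes described here encode proteins of the small nuclear ribonucleoproteins (snRNPs) of the spliceosome. They are 6 genes of the Sm ring (Snrpb, Snrpd1, Snrpd2, Snrpd3, Snrpe and Snrpf), 2 genes of U1-specific proteins (Snrpa and Snrpc) and 2 genes of U2-specific proteins (Snrpa1 and Snrpb2). They were chosen by symbol and not by a measured value, though with earlier results of these data known. The choice was from 21890 genes that carried a mean expression value at either embryonic stage, 20330 at E2.5 and 21199 at E3.5. All 10 were listed at both stages, and all had a mean of at least 10 normalized counts at each.

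The study crossed Mettl16+/- females, superovulated with PMSG and hCG, to Mettl16+/- males and sequenced polyadenylated RNA of single embryos without strand information. At E2.5 (16-cell morula) there were 31 embryos, of which 12 were Mettl16-/- (KO), 14 Mettl16+/- (HET) and 5 Mettl16+/+ (WT). At E3.5 (blastocyst) there were 39, of which 12 were KO, 9 HET and 18 WT. The mutant allele, a triple-stop cassette in an exon of the m6A methyltransferase gene Mettl16, came from 1 founder line made in B6D2F1/J embryos and crossed to C57BL/6JRj, and every embryo had heterozygous parents. A further 2 input and 2 m6A-IP libraries of an in vitro reaction hold no mouse gene and were not used here.

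The value used for each gene is the mean normalized count over all embryos of a stage, WT, HET and KO together, as deposited by the authors. No value of a single embryo or of a genotype was used, so no value below has an SD, an n per group or a test, and WT, HET and KO embryos are not compared. The share of WT embryos differed between the stages, so developmental stage and genotype mix cannot be told apart in any comparison of E3.5 with E2.5. In whole embryos, fewer cells of a type and less RNA per cell cannot be told apart either.

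Sm proteins are assembled as a ring around the Sm site of the U1, U2, U4 and U5 snRNAs, and the ring is loaded in the cytoplasm by the SMN complex after methylation of Sm arginines by PRMT5. In most introns, U1 snRNP recognizes the splice donor at the start and U2 snRNP the branch site near the end. The donor is then handed to U6 snRNA, which has its own LSm ring and is methylated by METTL16 at an adenosine that faces the +4 base of the donor. The genes of this machinery are themselves split by introns and have to be spliced.

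The donors of the 10 genes are shown because U1 snRNP, part of which these genes encode, reads this element in most introns. U6 snRNA also contacts it there. Which snRNP reads each single donor below was not tested. Each donor below covers the last 3 exon bases and the first 6 intron bases of the mm10 genome, 5′ to 3′, in lower case with the +4 base in capitals. The donors are the best match of the set to the commonest bases of all donors, the poorest match, another intron with the same first 6 intron bases as the poorest match, and the intron with the highest signal in each of Snrpc, Snrpa1 and Snrpb2 at E2.5 and of Snrpa when its first intron is left out.
Snrpc intron 5, chr17:27848055-27848063, plus strand: caggtaAgt
Snrpe intron 1, chr1:133610158-133610166, minus strand: atcgtaTcc
Snrpd3 intron 2, chr10:75519458-75519466, plus strand: caggtaTcc
Snrpc intron 1, chr17:27840167-27840175, plus strand: caagtgAgt
Snrpa1 intron 5, chr7:66069524-66069532, plus strand: aaagtgAgt
Snrpb2 intron 6, chr2:143070974-143070982, plus strand: ccagtaAgt
Snrpa intron 2, chr7:27195438-27195446, minus strand: atggtgAgt

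The donor of Snrpc intron 5 carried the commonest base at all 9 positions, and that of Snrpe intron 1 at 3 of 9. Over the 46 introns of the representative transcripts, the members' donors held the commonest base at 6.5 of 9 positions on average, beside 6.40 over 199021 introns listed. An A stood at +4 in 36 member donors (78.3%), beside 70.1% of all introns listed. The 10 member donors without it came from 8 genes. Snrpb had A at +4 in 6 of 6 donors and Snrpd2 in 2 of 2, while Snrpd3 had it in 1 of 3 and Snrpe in 2 of 4. The first 6 intron bases shared by Snrpe intron 1 and Snrpd3 intron 2 opened 720 of all introns listed (0.362%).

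The METTL16 nonamer UACAGAGAA, the sequence fixed within the in vitro library, was searched on the transcribed strand because METTL16 methylates structured RNAs that carry it. In the paper the nonamer without a fitting structure was not enough, and structure was not examined here. None of the 10 spliced transcripts held it, and 806 of 24466 representative transcripts did (3.29%). Gene bodies of 3 members held it, in introns only, at 1 position in Snrpe, 2 in Snrpf and 2 in Snrpc. The share of all gene bodies that hold it was not computed. The 3.29% is for spliced transcripts, which are shorter, and is no background for gene bodies. The 29-base windows, with the nonamer in capitals and written as DNA of mm10, are as follows.
Snrpe intron 2, chr1:133609342-133609370, minus strand: gggcgttataTACAGAGAAgcgagtggca
Snrpf intron 2, chr10:93584986-93585014, minus strand: tttgttttccTACAGAGAAacagcttgca
Snrpf intron 2, chr10:93584746-93584774, minus strand: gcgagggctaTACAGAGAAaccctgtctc
Snrpc intron 2, chr17:27841710-27841738, plus strand: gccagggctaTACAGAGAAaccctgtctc
Snrpc intron 4, chr17:27847778-27847806, plus strand: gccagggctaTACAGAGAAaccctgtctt

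The last 3 windows have nearly the same flanks in 2 different genes. Whether they are copies of a repeat of the genome was not examined, so the shared flanks are no evidence of a common METTL16 element. A match of letters is no evidence of methylation, and no m6A value of embryo RNA was used. Intron 2 of Snrpe had a mean of 0.725 normalized counts at E2.5 and 0.757 at E3.5, and intron 2 of Snrpf 3.80 and 6.36. Intron 2 of Snrpc had 46.6 and 20.8, and its intron 4 had 7.78 and 3.76.

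All 10 genes were abundant in both stages. At E2.5, 4.77% of genes listed were above the median member by mean, and at E3.5, 3.78%. Ranked per kb of exon these were 2.76% and 2.04%, and among genes with a mean of at least 10 they were 7.68% and 6.03%. The members together took a share of 2107 per 1e6 normalized counts of the table at E2.5 and 2011 at E3.5. None was among the 100 genes of highest mean at either stage. Levels of different genes are compared with each other per kb of exon in what follows. The length is the union of RefSeq exons, and orders and ranks per kb hold for that length. Shares of the table total are used to set the stages side by side, since the authors normalized each stage by itself.

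Snrpb, which encodes SmB and its splice form, was the most abundant member per length at E2.5. Its mean was 16832 normalized counts at E2.5 and 12845 at E3.5, and its level was 15016 and 11459 per kb of its 1121 nt of exon. The gene lies on chromosome 2 (130171636 to 130179364, minus strand, mm10). By level per kb it stood at rank 164 of all genes at E2.5 and 244 at E3.5, and its share at E3.5 was 0.662 times that at E2.5. Snrpb was the one Sm ring gene whose share was lower in blastocysts. Its reads could partly be exchanged with those of the closely related gene Snrpn, so its level is uncertain to that extent.

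Snrpd1 and Snrpd2 encode SmD1 and SmD2, which pair with each other before they are placed on snRNA. Snrpd1 (chromosome 18, 10617796 to 10628230, plus strand) had a mean of 2913 at E2.5 and 6200 at E3.5, or 3480 and 7408 per kb. Snrpd2 (chromosome 7, 19149838 to 19152726, plus strand) had 4504 and 6003, or 9229 and 12302 per kb of a short transcript of 488 nt. Snrpd2 was second in order of level per kb at both stages, and Snrpd1 was number 6 at E2.5 and number 4 at E3.5. The share of Snrpd1 was 1.85 times as high at E3.5 and that of Snrpd2 1.16 times. Per kb, the partners stood farther apart at E2.5 than at E3.5.

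Snrpd3 encodes SmD3, the ring partner of SmB. Snrpd3 (chromosome 10, 75518042 to 75535440, plus strand) had a mean of 1504 at E2.5 and 1977 at E3.5, or 2489 and 3273 per kb. It was the lowest Sm ring gene per kb at E3.5 and second lowest, after Snrpf, at E2.5. Its share was 1.14 times as high at E3.5.

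Snrpe and Snrpf encode SmE and SmF, which assemble with SmG before the ring is closed. Snrpe (chromosome 1, 133603871 to 133610280, minus strand) had a mean of 4098 at E2.5 and 6224 at E3.5, or 8330 and 12650 per kb, and was the most abundant member per length at E3.5. Snrpf (chromosome 10, 93583029 to 93589658, minus strand) had 1691 and 5517, or 2080 and 6786 per kb. The share of Snrpe was 1.32 times as high at E3.5 and that of Snrpf 2.83 times. Snrpf had the largest ratio of the 10, and 20.4% of the 11774 genes with a mean of at least 10 at both stages had a larger one. Their ring partner Snrpg, which is not one of the 10, had a mean of 4790 at E2.5 and 12815 at E3.5 and a ratio of shares of 2.32.

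Snrpa encodes U1A, which binds a stem-loop of U1 snRNA, and Snrpc encodes U1C, which steadies the pairing of U1 snRNA with the donor. Snrpa (chromosome 7, 27187006 to 27196271, minus strand) had a mean of 4830 at E2.5 and 3615 at E3.5, or 3076 and 2302 per kb. Snrpc (chromosome 17, 27840087 to 27851968, plus strand) had 6486 and 1684, or 8524 and 2212 per kb. Snrpc was number 3 of the 10 per kb at E2.5 and number 9 at E3.5. Its share was 0.225 times that at E2.5, 4.44-fold lower, and 5.41% of genes had a lower ratio. The share of Snrpa was 0.650 times that at E2.5. The other U1-specific gene, Snrnp70, had a mean of 949 at E2.5 and 1102 at E3.5 and a ratio of shares of 1.01, about equal at both stages.

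Snrpa1 encodes U2A′ and Snrpb2 encodes U2B″, which bind U2 snRNA as a pair. Snrpa1 (chromosome 7, 66060336 to 66074587, plus strand) had a mean of 5578 at E2.5 and 8039 at E3.5, or 4463 and 6431 per kb. Snrpb2 (chromosome 2, 143063069 to 143072052, plus strand) had 1203 and 2493, or 978 and 2027 per kb. By RefSeq exon length this was the lowest of the 10 at both stages. Per kb, Snrpa1 was thus above its partner at each stage. The share of Snrpa1 was 1.25 times as high at E3.5 and that of Snrpb2 1.80 times.

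**Figure D1:**
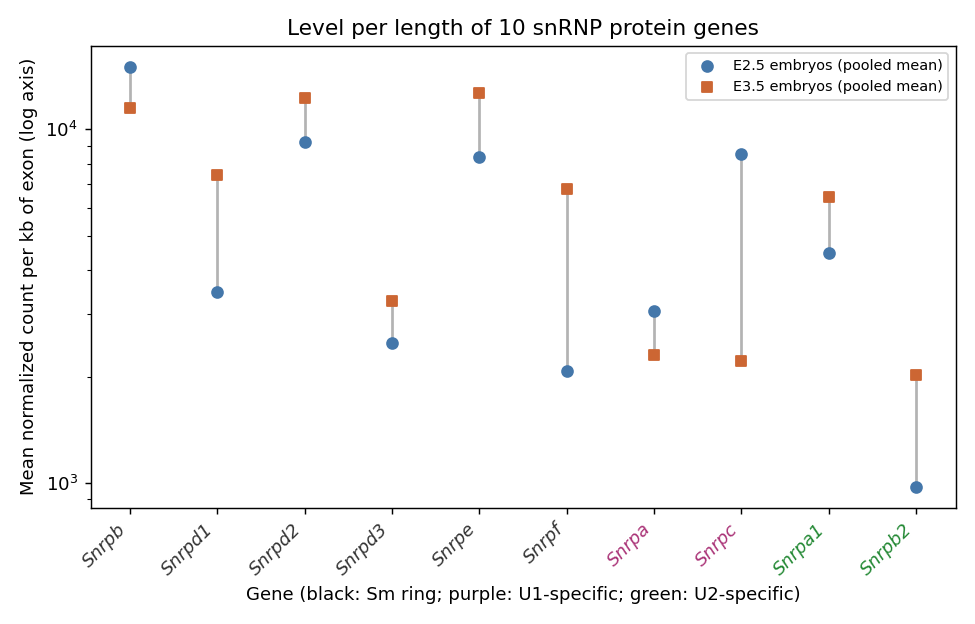
Mean normalized count per kb of RefSeq exon (log axis) of the 10 genes. Points are the authors' mean over 31 E2.5 embryos (circles) and 39 E3.5 embryos (squares), without error bars because only pooled means were used. Snrpb was highest at E2.5, with 15016, Snrpe was highest at E3.5, with 12650, and Snrpb2 was lowest at both, with 978 and 2027.

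The order of the 10 genes per kb at E2.5 was Snrpb, Snrpd2, Snrpc, Snrpe, Snrpa1, Snrpd1, Snrpa, Snrpd3, Snrpf and Snrpb2. At E3.5 it was Snrpe, Snrpd2, Snrpb, Snrpd1, Snrpf, Snrpa1, Snrpd3, Snrpa, Snrpc and Snrpb2. Whether neighbours in these orders differ cannot be told from means without a spread. The highest of the 10 was 15.4 times the lowest at E2.5 and 6.24 times at E3.5. With the length of the longest GENCODE transcript in place of the union of RefSeq exons these spreads were 19.9 and 33.7, so whether the spread was narrower or wider at E3.5 depended on the length used. The orders above hold for RefSeq exon lengths and are not given for the other length. Among the 6 Sm ring genes of the set the spread was 7.22 at E2.5 and 3.87 at E3.5. With Snrpg, which completes the ring and had 12188 and 32608 per kb, it was 7.22 and 9.96.

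Set against all genes, 1 of the 10 members (Snrpf) had a share at least 2-fold higher at E3.5, where 31.3% of 11774 genes did, and 1 (Snrpc) a share at least 2-fold lower, where 16.6% did. The ratio of shares was above 1 for 7 members and below 1 for Snrpb, Snrpa and Snrpc. The members' median ratio was 1.204 and that of all genes 1.27, so a typical gene was itself above 1 on this scale by 0.34 on the log2 scale. Relative to this median gene, Snrpd2 (0.912), Snrpd3 (0.899) and Snrpa1 (0.986) turned to below 1, and 4 members were above it and 6 below. Snrpd1, Snrpe, Snrpf and Snrpb2 stayed above and Snrpb, Snrpa and Snrpc below on both scales. On the scale of the median gene, which was chosen after seeing the data, 5887 of the 11774 genes were below 1 by construction. All 3 U1-specific genes were among these, with 0.512 for Snrpa, 0.178 for Snrpc and 0.794 for Snrnp70. On the scale of the table total Snrnp70 had 1.01.

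**Figure D2:**
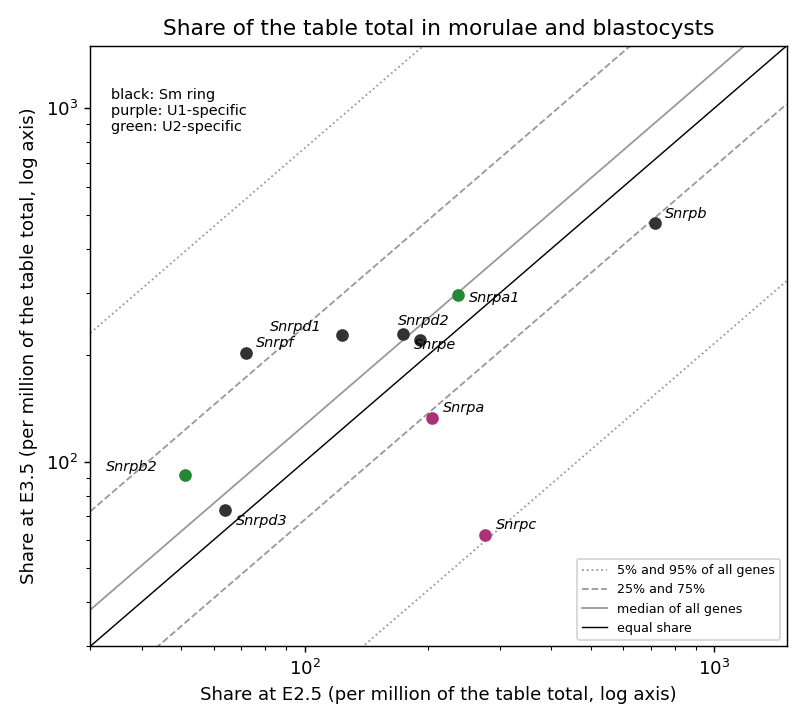
Share of each gene in its table, in normalized counts per 1e6 of the table total, at E2.5 (horizontal) and E3.5 (vertical), both log axes, with lines for an equal share and for the 5%, 25%, 50%, 75% and 95% points of the ratio over 11774 genes. Snrpf lies above the 75% line, Snrpb and Snrpa lie just below the 25% line, and Snrpc lies just above the 5% line.

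Markers of the first lineages differed in share between E2.5 and E3.5, in both directions. Of 5 trophectoderm markers, 4 had a higher share at E3.5, among them the keratin Krt8 with a mean of 651 at E2.5 and 30838 at E3.5. The fifth, Tfap2c, had a ratio of 0.304. Of the inner cell mass markers, Nanog had 552 and 4161, Sox2 13.6 and 165, and Pou5f1 9017 and 3527. Of the primitive endoderm markers, Gata6 had 3569 and 3676 (ratio of shares 0.894), Sox17 71.5 and 174, and Pdgfra 94.3 and 1575. The oocyte transcript Zp3, maternally inherited, had 1587 and 104. Cumulus cell markers had a mean of at most 7.32 where listed. The part of lineage make-up and of maternal RNA in the ratios of the 10 genes was not tested.

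The targeted gene Mettl16 had a pooled mean of 778 at E2.5 and 669 at E3.5, which cannot check the genotype labels. Mat2a, the METTL16 target that encodes S-adenosylmethionine synthetase, had 29053 and 4664.

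Other genes that build snRNPs had ratios on both sides of 1. Of 23 genes in 5 lists, 11 had a ratio of shares above 1 and 12 below, where 7117 of all 11774 genes were above 1. A share at least 2-fold higher at E3.5 was found in 5 of the 23, beside 31.3% of all genes, and one at least 2-fold lower in 6, beside 16.6%. Relative to the median gene, 9 were above and 14 below. The SMN complex, which loads the Sm ring, had a median ratio of 0.711 over 9 genes. In it, Smn1, its central subunit, had 1364 at E2.5 and 640 at E3.5 (ratio 0.407), and Gemin6 628 and 3000 (ratio 4.15).

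The 5 genes listed under Sm arginine methylation had a median ratio of 0.714. Clns1a, which encodes the chaperone pICln that holds Sm proteins before assembly, had 14992 at E2.5 and 5085 at E3.5 (ratio 0.294). Prmt5, the methyltransferase itself, had 8280 and 4743 (ratio 0.497). Coprs, a PRMT5 cofactor whose part in Sm methylation was not examined, had 888 and 2148 (ratio 2.10).

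The 4 genes of snRNA export, cap trimethylation and nuclear import had a median ratio of 1.11. Kpnb1, importin beta, had 3629 at E2.5 and 13761 at E3.5 (ratio 3.29), and its snRNP adaptor Snupn 2649 and 711 (ratio 0.233). The genes Lsm10 and Lsm11, whose proteins take the place of SmD1 and SmD2 in the U7 snRNP of histone mRNA processing, had ratios of 6.84 and 1.60. In the list of remaining Sm and U1 proteins, Snrpn had 3796 and 1924 (ratio 0.440).

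The tables of single exons were used to see whether the ratios of shares held along each gene. A read that spans a junction can be counted in both exons, so exon means are not additive, and ratios are of shares in the exon table. In Snrpc all 6 exons were lower at E3.5, with ratios between 0.135 (first) and 0.194 (exon 5). Its first exon had a mean of 1927 at E2.5 and 218 at E3.5, and its last exon 2232 and 308.

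In Snrpf all 4 exons were higher at E3.5, with ratios between 2.10 (last) and 4.21 (second). The second exon had a mean of 1077 at E2.5 and 3809 at E3.5. In Snrpd1 all 4 exons were higher as well, with ratios between 1.40 and 2.42.

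In Snrpb and Snrpa the ratio differed along the gene. The first exon of Snrpb had a mean of 2794 at E2.5 and 864 at E3.5 (ratio 0.368), and its last exon 6641 and 5493 (ratio 0.984). The first exon of Snrpa had 656 and 209 (ratio 0.378), and its last exon 1824 and 1308 (ratio 0.853). Both genes had a lower share at E3.5 in every exon, with the ratio nearest to 1 in the last exon.

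Exons of Snrpd2, Snrpd3, Snrpe and Snrpa1 lay on both sides of a ratio of 1, so that their direction depended on the exon. In Snrpb2, exon 3 had a ratio of 0.670, with a mean of 388 at E2.5 and 219 at E3.5, while the other 6 exons had ratios between 1.34 and 2.12. Exon 3 was the one exon of Snrpb2 with a lower share at E3.5.

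**Figure D3:**
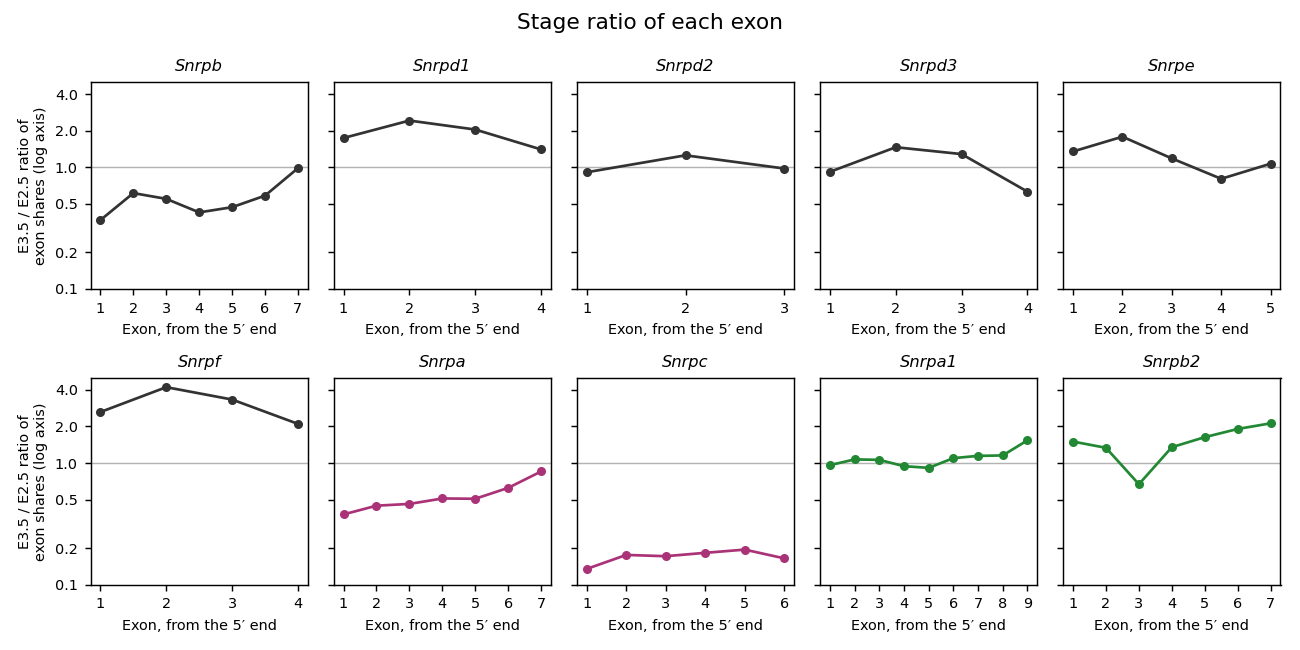
Ratio of the exon's share at E3.5 to that at E2.5 (log axis) for each of the 56 exons of the 10 genes, numbered from the 5′ end, with a line at 1. The 6 exons of Snrpc lie between 0.135 and 0.194, the exons of Snrpa lie higher towards the 3′ end, and exon 3 of Snrpb2 (0.670) lies below its neighbours.

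The difference between the ends was set against other genes. The stage ratio of the last exon divided by that of the first had a median of 2.91 over 5292 genes and was above 1 in 93.9% of them, so 3′ ends were relatively more covered at E3.5 throughout the tables. Over 1083 genes whose transcript length lay within the range of the members, the median was 1.73 and 89.1% were above 1. The members' median was 1.15, and 6 of 10 were above 1. Snrpb (2.68) and Snrpa (2.26) were above the median of genes of like length, and Snrpd3 (0.687), Snrpe (0.793), Snrpf (0.799) and Snrpd1 (0.805) were below 1. The part of this shift in the ratios of Snrpb and Snrpa was not tested.

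Intron signal was measured as the mean per base of introns in percent of the mean per base of exons of the same gene, a measure that includes unspliced RNA and any other transcript in the intron. The members had low intron signal. Their median was 0.0727% at E2.5 and 0.115% at E3.5, beside 0.734% over 8770 genes and 1.37% over 9256 genes with a summed exon mean of at least 100. Beside genes with exon signal in the members' own range the medians were 0.304% over 2373 genes and 0.560% over 2547 genes.

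Snrpe had the lowest intron signal, 0.0358% at E2.5 and 0.0359% at E3.5, lower than in all but 2.57% and 0.982% of the genes with like exon signal. Snrpd1 had 0.0472% and 0.0573%, Snrpd2 0.0663% and 0.0465%, Snrpb 0.0790% and 0.127%, and Snrpd3 0.150% and 0.247%. These 5 Sm ring genes were thus below the median of genes with like exon signal at both stages. Snrpf had 0.109% and 0.0427%, but all 3 of its introns overlap exons of genes on the opposite strand, Ccdc38 and 4933408J17Rik, whose reads cannot be told apart without strand.

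Among the U1 and U2 genes, Snrpc had 0.0605% at E2.5 and 0.175% at E3.5, and Snrpa1 0.0509% and 0.103%. Snrpb2 had 0.236% and 0.320%. Snrpa was the highest of the 10, with 0.293% and 0.777%, and at E3.5 it was the one member above the median of genes with like exon signal. Its intron 2 held 101 of a summed intron mean of 133 at E2.5 and 124 of 162 at E3.5. By the median over the introns of a gene, Snrpa had 0.114% and 0.162%, below Snrpb2 with 0.214% and 0.264%. The value of Snrpa leaves out 2 introns in the table that overlap an alternative exon of the gene. Intron 1, which is among them, had a mean of 87.7 at E2.5 and 87.5 at E3.5, or 3.33% and 7.23% of exon density. It also overlaps an exon of BC024978 on the opposite strand, as do exons of Snrpa, and these reads cannot be told apart without strand.

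**Figure D4:**
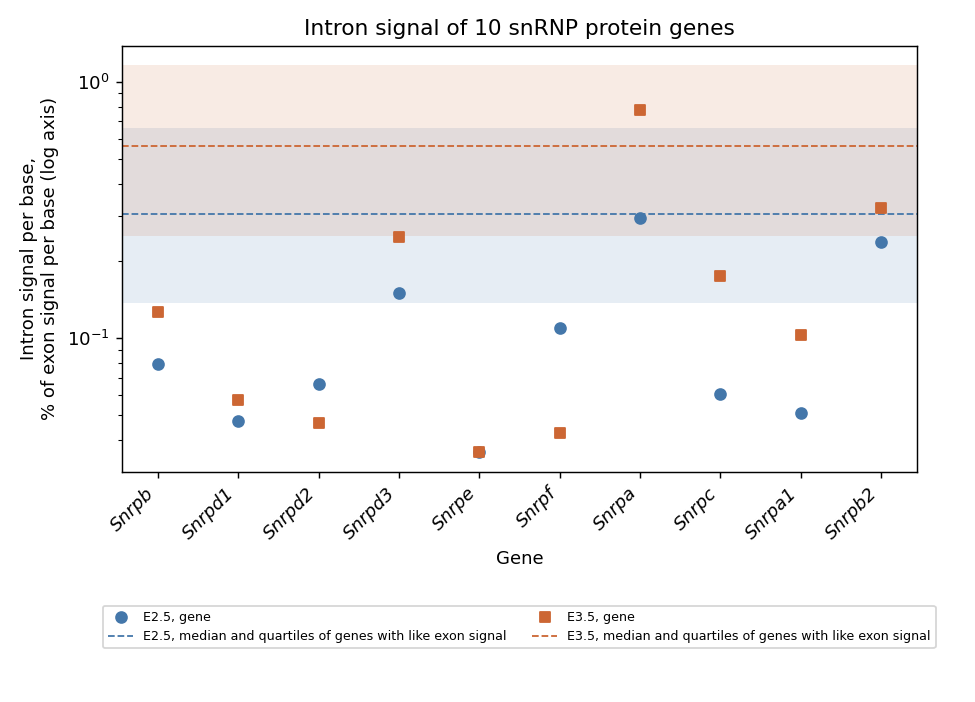
Intron signal per base in percent of exon signal per base (log axis) for the 10 genes at E2.5 (circles) and E3.5 (squares), with dashed medians and shaded quartiles of 2373 (E2.5) and 2547 (E3.5) genes with exon signal in the members' range. Snrpa at E3.5 (0.777%) is the one point above its stage's median, and Snrpe lies lowest at both stages.

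Intron signal relative to exons was higher at E3.5 in 8 of 10 members and in 80.2% of 7996 genes, a like share. The median stage ratio was 1.48 for the members and 1.82 for all genes. Snrpc (2.89) and Snrpa (2.66), both lower in exons at E3.5, had the largest ratios, and Snrpf (0.391) and Snrpd2 (0.701) were below 1. The summed intron mean itself was 124 at E2.5 and 51.8 at E3.5 in Snrpc, and 133 and 162 in Snrpa. Each stage was normalized by itself, so these means are not compared between the stages.

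Single introns stood out in several genes. In Snrpa, intron 2 had a mean of 101 at E2.5 and 124 at E3.5, or 0.696% and 1.85% of exon density, and an annotated exon of nonsense-mediated decay or retained-intron transcripts lies within it. In Snrpa1, intron 5 had 34.4 and 54.5, or 0.471% and 0.798%. An annotated exon of a retained-intron transcript of the gene overlaps it, in an extent that was not measured.

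In Snrpc, intron 1 had 25.2 at E2.5 and 7.64 at E3.5, or 0.463% and 0.975%. In Snrpb2, intron 1 had 7.76 and 32.3, or 0.247% and 0.783%. Set against the total of all exons, intron 1 was lower at E3.5 in Snrpc (ratio 0.361) and higher in Snrpb2 (ratio 4.95). The exons of the respective gene went the same way, except exon 3 of Snrpb2.

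In Snrpb, intron 2 contains annotated alternative exons of nonsense-mediated decay or retained-intron transcripts. It had a mean of 50.5 at E2.5 and 69.6 at E3.5, or 0.0932% and 0.259% of exon density, while intron 1 of the same gene had 74.4 and 16.7. The donor of intron 2 is shown next because this is the donor after which those alternative exons lie.
Snrpb intron 2, chr2:130177009-130177017, minus strand: caagtaAgg

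The donor of Snrpb intron 2 has A at +4 and holds the commonest base at 7 of 9 positions. The introns that share their first 6 bases, Snrpe intron 1 and Snrpd3 intron 2, had the highest intron signal of their genes at E2.5. Snrpe intron 1 had a mean of 17.3 at E2.5 and 13.4 at E3.5 (0.219% and 0.168%), and Snrpd3 intron 2 had 114 and 179 (0.171% and 0.277%). Over all genes, introns with these bases had a median of 0.629% at E2.5 (418 introns) and 0.961% at E3.5 (435 introns), and other introns 0.453% and 0.877%. Both members' introns were below either median, and Snrpe intron 1 also contains an annotated exon of another transcript of the gene.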

How the data were processed

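Single-embryo libraries were made by Smart-seq2. The authors estimated transcript counts with Salmon 0.7.2 on RefSeq transcripts of mm10, summed them to genes, counted single exons and introns with featureCounts after mapping with STAR, and normalized each stage with DESeq2 1.18.1. The signal used is the mean normalized count per gene, exon or intron over all embryos of a stage, as deposited by the authors. The tables also hold log2 fold changes between genotypes and adjusted p-values of the authors, which were not used. Depth per embryo is not given in the tables used, so intervals were not computed, and the table totals are 23557112 (E2.5) and 27145016 (E3.5).

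Shares, ranks, levels per kb of RefSeq exon (98.3% of genes had a length) and stage ratios (means of at least 10) were computed with Python 3.11.15 and pandas 2.3.3, and checked on simulated data. Introns overlapping a RefSeq exon of their own gene were left out. Overlaps with GENCODE vM21 exons are given as annotation only. Introns that hold an exon of their own gene in GENCODE alone were kept in the intron signal. All 10 members are named. The members and lists were chosen with earlier results of these data known. A comparison of protein sequences was not used here. Alternatives were another table, filter, length, total, scaling and intron summary, with the scaling to the median gene, the ranges of like genes and the shared first intron bases chosen after seeing the data.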

Additional observations from a re-analysis of the deposited data

How the results depend on the processing

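The members' median level stood below 7.68% of genes at E2.5 and 6.03% at E3.5 when only genes with a mean of at least 10 were ranked, and below 2.76% and 2.04% when means per kb were ranked. The spread of levels per kb was 19.9-fold at E2.5 and 33.7-fold at E3.5 with the length of the longest GENCODE transcript in place of the union of RefSeq exons. Scaled to the median gene, the ratio of shares was 0.912 for Snrpd2, 0.899 for Snrpd3 and 0.986 for Snrpa1, on the other side of 1 from the ratios to the table total. The other 42 alternative values kept their direction or stayed within 1.5 times the main value.

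No paired analysis was possible because the embryo tables hold pooled means with no column per embryo. Without values per embryo, there was no spread, no test and no fit without single embryos. Levels of Snrpb and Snrpn, of genes with processed copies in the genome, and of overlapping genes are uncertain. Intron means under 10 rest on few reads per embryo.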
